A study of Mus musculus with 9 samples.

Results

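The comparison set CD43+ckit- cells against both other sorted populations of an AML1-ETO9a leukaemia at once and asked which genes peaked or dipped there. A peak gene in CD43+ckit- exceeded its CD43++ckit+ level, its CD43-ckit- level and the average of both, and a dip gene was lower in all 3 differences, each at an adjusted p under 0.05 from edgeR's quasi-likelihood test over 12573 tested genes. By this rule 660 genes (5.25% of those tested) were peak genes and 342 (2.72%) were dip genes. Peak genes included transporters and blood group proteins of the red cell membrane, haem synthesis genes and cyclins. Among the dip genes were Kit, Cbfb, Runx3, Bcl2 and glycolysis enzymes. The dip of Kit was lost in 9 of 18 alternative analyses and that of Bcl2 in 3 of 17. Of the glycolysis dips only that of Pfkfb3 held in all 18. When counts were scaled by library totals alone, 301 of the 660 peak genes and 118 of the 342 dip genes were called again.

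RNA was sequenced from bone marrow cells of C57BL/6 mice aged 6-8 weeks in an AML1-ETO9a model of leukaemia, named for an alternatively spliced and truncated version of the AML1-ETO fusion. Sorting by surface CD43 and c-Kit gave CD43++ckit+, CD43+ckit- and CD43-ckit-, with 3 libraries each, 9 in all. All populations came from leukaemic marrow, and no library from marrow without it was among the 9, so a peak or dip is relative to other cells of the same leukaemic marrow. The labels do not say how the fusion was delivered, how many animals were pooled, or whether replicates came from separate animals. The p-values therefore measure the spread between these libraries, which may be technical.

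AML1-ETO joins the DNA-binding part of RUNX1 to the corepressor RUNX1T1 and interferes with the genes that RUNX1 and its partner CBFB control in blood cell maturation. The leukocyte surface protein CD43 is heavily sialylated, and c-Kit, the receptor for stem cell factor, marks progenitors and mast cells. Red cell precursors lose c-Kit as they mature, make haem, fill their membrane with transporters and blood group proteins, divide rapidly for a time and then leave the cell cycle.

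Depth was 17966197 to 31781746 counts per library. Values are TMM-scaled CPM (counts scaled to library size), listed in the order of replicates 1, 2 and 3 of each population, and differences are on the log2 scale with their standard error (SE). The least correlated library within each group was replicate 3 of CD43++ckit+ and replicate 1 of CD43+ckit- and of CD43-ckit-. Without these 3 libraries, 1102 peak and 908 dip genes were called, which held 644 of the 660 and 331 of the 342. The same 3 libraries stand apart in the summed neutrophil maturation markers. That sum was 8039 CPM in replicate 3 of CD43++ckit+ (540.1 and 183.8 in its other replicates), 975.4 in replicate 1 of CD43+ckit- (5277 and 4232) and 8220 in replicate 1 of CD43-ckit- (23790 and 23760). A fit that took the mean of these markers as covariate called 671 peak and 526 dip genes, which held 545 of the 660 and 280 of the 342. In bulk RNA, fewer cells of a type and less RNA per cell cannot be told apart.

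The sort markers were read first. Kit stood at 176, 171 and 146 CPM in CD43++ckit+, at 7.8, 18.4 and 21.03 in CD43+ckit- and at 18.9, 41.3 and 42.1 in CD43-ckit-. The log2 difference was -3.38 (SE 0.41, edgeR adjusted p = 0.000569) against CD43++ckit+ and -1.11 (SE 0.39, adjusted p = 0.0379) against CD43-ckit-. Kit was thus lowest in CD43+ckit-, although its replicate 3 lay above replicate 1 of CD43-ckit-, and both groups were sorted as c-Kit negative. The Kit dip was lost in 9 of 18 alternative analyses. It was lost without replicate 1 of CD43++ckit+, replicate 1 or 2 of CD43+ckit-, or replicate 2 or 3 of CD43-ckit- (edgeR adjusted p = 0.0542 to 0.114). It was also lost with library totals (0.33), the neutrophil covariate (0.128), no low-count filter (0.0792) and separate fits for each pair of populations (0.0519). Spn, which encodes CD43, had no peak or dip, with means of 502.4 ± 63.7, 194.2 ± 50.3 and 142.3 ± 61.2 CPM (SD, n = 3) in CD43++ckit+, CD43+ckit- and CD43-ckit-. Spn was not called different between CD43+ckit- and CD43-ckit- (log2 difference 0.45, SE 0.33, edgeR adjusted p = 0.269), and their libraries overlapped. Runx1 was neither a peak nor a dip gene, with a middle contrast of -0.59 (SE 0.25, edgeR adjusted p = 0.111), where the middle contrast is CD43+ckit- minus the average of both other populations. Runx1t1 was a peak gene, at 84.2 to 93.6 CPM against 48.6 to 76.2 in the other 6 libraries, with a middle contrast of 0.62 (SE 0.17, edgeR adjusted p = 0.0235). That call was lost in 11 of 18 alternative analyses, including each one without a CD43+ckit- library (edgeR adjusted p = 0.0527 to 0.0867), and gene counts cannot separate the fusion transcript from the endogenous genes.

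Most genes that passed the middle contrast alone were not peaks or dips. The contrast was called for 3576 genes (28.4%), 2260 higher (18%) and 1316 lower (10.5%) in CD43+ckit-. Higher calls made up 63.2% with TMM scaling, 81.5% with library totals and 53.3% with DESeq2 size factors. Of the 3576 genes, 837 (23.4%) had a CD43+ckit- mean between the other means, which is an unequal step in a steady rise or fall. Another 1737 (48.6%) had the CD43+ckit- mean outside both others but missed at least 1 pairwise test. The remaining 660 (18.5%) and 342 (9.56%) were the peak and dip genes. Against CD43++ckit+ alone 2533 genes (20.1%) were higher and 2472 (19.7%) lower, and against CD43-ckit- alone 3893 (31%) were higher and 2630 (20.9%) lower.

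**Figure D1:**
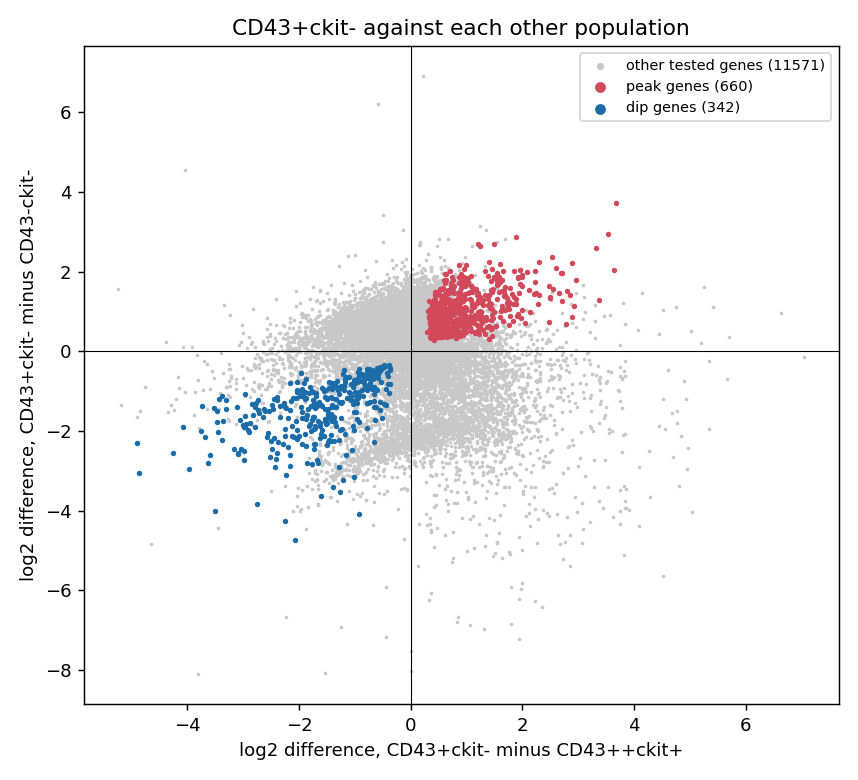
Each point is 1 of 12573 tested genes, placed by its log2 difference between CD43+ckit- and CD43++ckit+ (x axis) and between CD43+ckit- and CD43-ckit- (y axis). The 660 peak genes (red) lie in the upper right, the 342 dip genes (blue) in the lower left, and genes with a CD43+ckit- value between the others lie in the lower right and upper left.

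Among the called genes, steps were smaller in peak genes than in dip genes. The step of a gene is the smaller of its differences from the other populations, and its median was 0.63 for peak genes and -1.18 for dip genes. A step of at least 1 (2-fold) was reached by 120 peak genes (18.2% of them, 0.954% of all tested) and by 206 dip genes (60.2% of them, 1.64% of all tested). For 416 peak genes (63%) and 242 dip genes (70.8%) CD43++ckit+ and CD43-ckit- were not called different from each other. Peak genes had a median average log2 CPM of 5.37 and dip genes one of 3.62, against 4.49 over all tested genes. A gene with low counts needs a larger step to be called, and the part of this in the step sizes was not tested. Their longest annotated transcripts had medians of 2882 bases and 53.6% GC for peak genes and 3875 bases and 49.6% GC for dip genes, against 3281 bases and 49.9% over all tested genes, and the part of length and GC in the calls was not tested.

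The CD43+ckit- libraries all lay above the other 6 for 652 peak genes and all below them for 307 dip genes. Over all tested genes this held for 1245 (9.9%) and 539 (4.29%). Replicate 1 of CD43+ckit- was the highest of its 3 for 449 peak genes (68%) and the lowest for 253 dip genes (74%), and it was also the CD43+ckit- library with the lowest neutrophil marker sum. Leaving out that library gave 386 peak and 225 dip genes, of which 381 and 198 were among the original ones. Peak calls also fell past 1.5 times without replicate 1 or 2 of CD43++ckit+ (417 and 428) or replicate 2 of CD43+ckit- (396), and dip calls without replicate 3 of CD43+ckit- (218) or replicate 2 of CD43-ckit- (201).

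The 14 peak genes with the largest steps encode proteins of many kinds. The rule took them from those without overlap between libraries whose log2 CPM averaged at least 3, so the lack of overlap in each is by selection. All 14 kept the peak in each of 18 alternative analyses, which choosing the largest steps in these same data favours. Pdia2 stood at 4.53, 5.47 and 11.1 CPM in CD43++ckit+, at 60.8, 52.05 and 42.9 in CD43+ckit- and at 12.2, 7.003 and 14.1 in CD43-ckit-. On the log2 scale this was a difference of 2.88 (SE 0.38, edgeR adjusted p = 0.000727) against CD43++ckit+ and 2.23 (SE 0.38, adjusted p = 0.00145) against CD43-ckit-. Pdia2, a protein disulfide isomerase, had the largest step of these genes, and its lowest CD43+ckit- library stood far above each of the other 6.

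Arhgef40 stood at 1.13, 1.89 and 3.997 CPM in CD43++ckit+, at 29.8, 30.1 and 27.4 in CD43+ckit- and at 7.23, 6.81 and 7.18 in CD43-ckit-. Fitted log2 differences were 3.63 (SE 0.40, edgeR adjusted p = 0.000414) against CD43++ckit+ and 2.04 (SE 0.38, adjusted p = 0.00238) against CD43-ckit-. Arhgef40, a guanine nucleotide exchange factor, stood nearly level across the CD43+ckit- libraries, and CD43-ckit- also exceeded CD43++ckit+ (1.59, SE 0.38, edgeR adjusted p = 0.00509). Abcg4 stood at 41.3, 44.9 and 74.4 CPM in CD43++ckit+, at 244, 197 and 179 in CD43+ckit- and at 50.7, 46.6 and 52.4 in CD43-ckit-. Its log2 difference was 1.95 (SE 0.23, edgeR adjusted p = 0.000486) against CD43++ckit+ and 2.05 (SE 0.23, adjusted p = 0.000224) against CD43-ckit-. Abcg4, a sterol transporter of the ABC family, was high in all 3 CD43+ckit- libraries, and CD43-ckit- and CD43++ckit+ were not called different (-0.10, SE 0.22, edgeR adjusted p = 0.693).

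Tac2 stood at 211, 185 and 296 CPM in CD43++ckit+, at 881, 778 and 707 in CD43+ckit- and at 281, 220.0 and 287 in CD43-ckit-. In the fit, CD43+ckit- differed by a log2 value of 1.77 (SE 0.20, edgeR adjusted p = 0.000428) against CD43++ckit+ and 1.59 (SE 0.20, adjusted p = 0.000364) against CD43-ckit-. Tac2, the precursor gene of the neuropeptide neurokinin B, was higher in each CD43+ckit- library than in the other 6. Mgst3 stood at 59.1, 60.8 and 67.8 CPM in CD43++ckit+, at 293, 285 and 237 in CD43+ckit- and at 97.1, 75.5 and 111 in CD43-ckit-. These values gave log2 differences of 2.12 (SE 0.17, edgeR adjusted p = 0.000292) against CD43++ckit+ and 1.52 (SE 0.16, adjusted p = 0.000166) against CD43-ckit-. Mgst3, a microsomal glutathione transferase, had the smallest SE of the 14, and its lowest CD43+ckit- library lay above all of the other 6.

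Several others had steps of nearly 4-fold. St3gal6, a sialyltransferase, stood at 12.02 to 28.7 CPM against 2.57 to 5.53 in the other 6 libraries, and replicate 1 of CD43+ckit- was more than 2 times its other libraries. Slc26a1, a sulfate and anion transporter, stood at 20.6 to 32.1 CPM against 3.25 to 8.25 in the other 6 libraries. Cd200r2, of the CD200 receptor family, stood at 23.3 to 29.9 CPM against 5.22 to 8.41 in the other 6 libraries, with pairwise differences of 1.99 and 1.91. Of its sequence, 95.6% of 50-base words are found only in this gene among the reference transcripts.

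The others of the set had somewhat smaller steps. Snx32, a sorting nexin, stood at 18.7 to 31.5 CPM against 5.31 to 7.78 in the other 6 libraries, and Fbxw4, an F-box protein, at 82.3 to 161 CPM against 25.96 to 40.3 in the other 6 libraries, both with replicate 1 of CD43+ckit- the highest. Nanos1, an RNA-binding translational repressor, stood at 15.8 to 24.3 CPM against 4.399 to 6.43 in the other 6 libraries. Cacna1h, a T-type calcium channel subunit, stood at 59.6 to 72.8 CPM against 6.55 to 25.5 in the other 6 libraries, and Ifitm10, of the interferon-induced transmembrane family, at 36.4 to 41.1 CPM against 8.09 to 15.99 in the other 6 libraries. Part of the exons of St3gal6 (26%), Fbxw4 (21.4%) and Snx32 (13.2%) overlaps other genes, and strand handling is not stated, so their counts may hold reads of those neighbours.

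**Figure D2:**
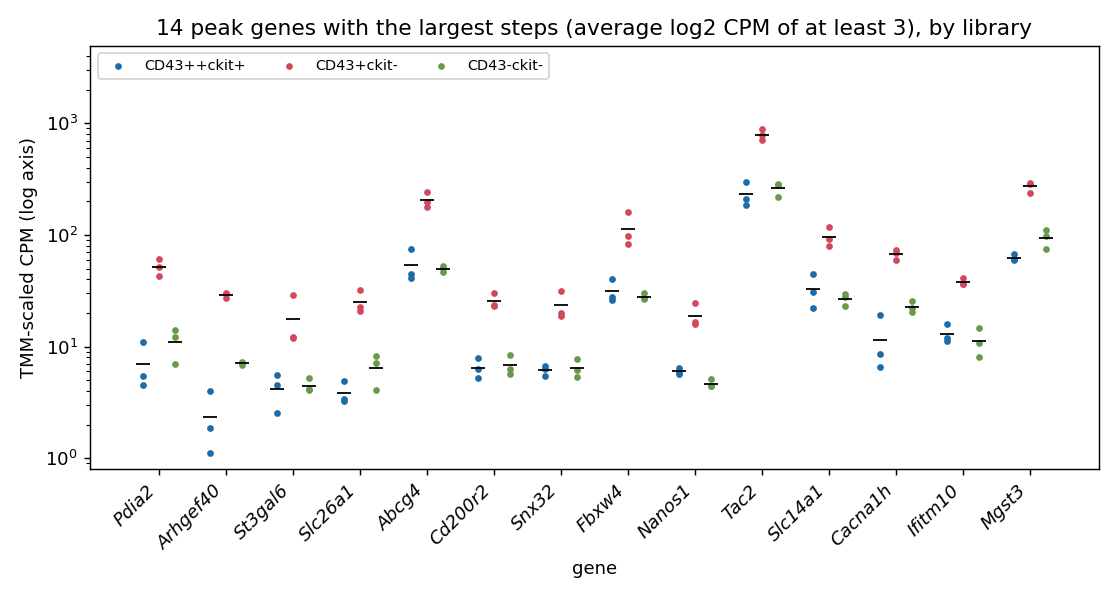
Points give CPM (log axis) in each of the 9 libraries for the 14 peak genes with the largest steps, coloured by population, and black bars are group means. The genes were chosen to have no overlap, so the 3 CD43+ckit- points lie above the other 6 in each by selection, from 12.02 CPM or more in St3gal6 to 707 or more in Tac2.

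Red cell membrane and blood group genes held the largest share of peak genes of the 33 gene lists that were counted. Of 27 tested members, 6 were peak genes (22.2%, against 5.25% of all tested genes) and 0 were dip genes, namely Slc14a1, Aqp1, Icam4, Rhag, Add2 and Mfsd2b. Another 11 members passed the middle contrast upwards without being peaks, so 17 of 27 were higher (63%, against 18% of all tested genes) and 0 lower, with a list median of 0.81. The band 3 anion exchanger Slc4a1 was one of these, with means of 406.7, 9274 and 21460 CPM in CD43++ckit+, CD43+ckit- and CD43-ckit-, a further rise that missed the threshold (log2 difference -1.21 between CD43+ckit- and CD43-ckit-, edgeR adjusted p = 0.0716). The lists were chosen with earlier results of these data known, so these counts describe the lists and test nothing.

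The promoters of Icam4, Rhag and Aqp1, 3 of the 6 red cell membrane peak genes, are shown because GATA factors, which bind sequences with the core GATAA, act on red cell genes. They are the 250 bases before the RefSeq start site in GRCm38.p6, read 5′ to 3′ on the gene's strand, with GATAA or its complement TTATC in capitals. Icam4 lies at chr9:21029182-21029431, Rhag at chr17:40810899-40811148 and Aqp1 at chr6:55336049-55336298, all on the plus strand.
Icam4: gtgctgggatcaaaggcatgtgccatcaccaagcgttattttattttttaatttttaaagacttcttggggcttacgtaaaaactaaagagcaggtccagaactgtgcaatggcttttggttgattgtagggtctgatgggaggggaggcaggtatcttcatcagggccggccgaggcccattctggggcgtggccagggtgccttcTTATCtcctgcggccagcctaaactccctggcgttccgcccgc
Rhag: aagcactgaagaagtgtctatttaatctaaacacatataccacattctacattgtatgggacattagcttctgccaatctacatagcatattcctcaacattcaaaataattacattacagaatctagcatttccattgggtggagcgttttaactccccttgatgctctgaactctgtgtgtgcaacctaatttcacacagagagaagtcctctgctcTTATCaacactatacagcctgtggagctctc
Aqp1: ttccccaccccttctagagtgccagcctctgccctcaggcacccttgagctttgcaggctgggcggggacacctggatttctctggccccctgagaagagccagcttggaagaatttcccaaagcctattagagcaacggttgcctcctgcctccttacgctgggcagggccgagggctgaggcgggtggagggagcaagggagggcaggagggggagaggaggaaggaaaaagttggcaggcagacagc
Icam4 holds 1 match, TTATC at position -43 from the start, Rhag holds 1, TTATC at -31, and Aqp1 holds none. Over 682 promoters of 543 peak genes, which is 82.3% of the 660, GATAA was present on either strand in 16.7%, against 22.6% of 32817 promoters in the whole table and 15.2% of those of tested genes. CCAAT was present in 40.2% of peak gene promoters, against 33.8% in the whole table and 35.5% of those of tested genes. For CACCC the shares were 57.5%, 52% and 57.1%, and for GGAA 92.7%, 93.4% and 93.2%, each on either strand. Fewer than 80% of dip genes (77.8%) and of all tested genes (79.5%) had a promoter in the table, so the same check was void for dip genes and the share among tested genes covers a part of them. These matches describe letters and are not evidence of binding.

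Slc14a1, the urea transporter that carries the Kidd blood group, had the largest step of the list. Slc14a1 stood at 22.3, 30.99 and 44.2 CPM in CD43++ckit+, at 119, 80.2 and 91.2 in CD43+ckit- and at 22.9, 27.8 and 29.6 in CD43-ckit-. The log2 difference was 1.57 (SE 0.25, edgeR adjusted p = 0.00159) against CD43++ckit+ and 1.85 (SE 0.26, adjusted p = 0.000584) against CD43-ckit-. All 3 CD43+ckit- libraries lay above the other 6, and the call was kept in each of 18 alternatives.

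Rhag stood at 221, 209.6 and 185 CPM in CD43++ckit+, at 544, 405 and 465 in CD43+ckit- and at 291, 206 and 214 in CD43-ckit-. On the log2 scale this was a difference of 1.20 (SE 0.17, edgeR adjusted p = 0.000993) against CD43++ckit+ and 0.99 (SE 0.17, adjusted p = 0.00176) against CD43-ckit-. Rhag, the glycoprotein that anchors the Rh complex, fell back in CD43-ckit- to a level not called different from CD43++ckit+ (0.21, SE 0.17, edgeR adjusted p = 0.292). Icam4 stood at 86.7, 79.6 and 81.9 CPM in CD43++ckit+, at 184, 165 and 139.7 in CD43+ckit- and at 61.04, 52.7 and 68.2 in CD43-ckit-. Fitted log2 differences were 0.98 (SE 0.14, edgeR adjusted p = 0.00097) against CD43++ckit+ and 1.42 (SE 0.14, adjusted p = 0.000127) against CD43-ckit-. Icam4, the Landsteiner-Wiener blood group adhesion molecule, ended in CD43-ckit- below its CD43++ckit+ level (-0.45, SE 0.14, edgeR adjusted p = 0.0187), and all of its exons overlap a predicted gene on the opposite strand.

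Aqp1 stood at 28.98, 26.6 and 30.97 CPM in CD43++ckit+, at 254, 208 and 178 in CD43+ckit- and at 172, 79.8 and 104 in CD43-ckit-. Its log2 difference was 2.89 (SE 0.28, edgeR adjusted p = 0.000325) against CD43++ckit+ and 0.85 (SE 0.26, adjusted p = 0.0231) against CD43-ckit-. Aqp1, the water channel with the Colton blood group, rose steeply into CD43+ckit- and stood lower again in CD43-ckit- without overlap. Its peak was lost without replicate 1 of CD43+ckit- or replicate 2 or 3 of CD43-ckit- (edgeR adjusted p = 0.0653 to 0.0727), as was that of Mfsd2b, the sphingosine phosphate exporter of red cells (0.0731 to 0.0858). The peak of Add2, beta adducin of the membrane skeleton, was lost without any 1 CD43+ckit- library or replicate 2 or 3 of CD43-ckit- (0.0584 to 0.0947). Aqp1, Mfsd2b and Add2 also lost the call with DESeq2 size factors (edgeR adjusted p = 0.0519 to 0.0766) and with the neutrophil covariate (0.0556 to 0.0712). The list kept 3 peak genes without replicate 1 of CD43+ckit-, replicate 2 or 3 of CD43-ckit-, and with DESeq2 size factors, and it had 13 with library totals.

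Haem synthesis and iron genes had 4 peak genes among 28 tested members (14.3%, against 5.25% of all tested genes) and 0 dip genes. Upwards 15 members passed the middle contrast (53.6%, against 18%) and downwards 2 (7.14%, against 10.5%), with a list median of 0.59. Its peak genes were Tmem14c, Alad, Aco1 and Abcb6, whereas Alas2, whose product catalyses the first step of the pathway in red cells, rose steadily with means of 72.9, 2082 and 9121 CPM. Tmem14c stood at 341, 318 and 311 CPM in CD43++ckit+, at 799, 799 and 753 in CD43+ckit- and at 368, 277 and 378 in CD43-ckit-. In the fit, CD43+ckit- differed by a log2 value of 1.28 (SE 0.14, edgeR adjusted p = 0.000412) against CD43++ckit+ and 1.20 (SE 0.14, adjusted p = 0.000269) against CD43-ckit-. Tmem14c, a mitochondrial membrane protein needed for porphyrin import, was high in all 3 CD43+ckit- libraries, and CD43-ckit- and CD43++ckit+ were not called different (0.08, SE 0.14, edgeR adjusted p = 0.633).

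Alad stood at 123, 139 and 185 CPM in CD43++ckit+, at 828, 738 and 601 in CD43+ckit- and at 395, 254 and 303 in CD43-ckit-. These values gave log2 differences of 2.28 (SE 0.23, edgeR adjusted p = 0.000325) against CD43++ckit+ and 1.19 (SE 0.22, adjusted p = 0.00222) against CD43-ckit-. Alad, the enzyme after Alas2 in the pathway, was highest in CD43+ckit- without overlap and was intermediate in CD43-ckit-. Aco1, the iron regulatory protein that is also cytosolic aconitase, stood at 252 to 288 CPM against 107 to 198 in the other 6 libraries, with pairwise differences of 1.24 and 0.64. Abcb6, a porphyrin transporter, stood at 152 to 183 CPM against 58.6 to 147 in the other 6 libraries. The Abcb6 call was lost in 9 of 18 alternatives, among them those without replicate 1 or 2 of CD43+ckit- or 2 or 3 of CD43-ckit- (edgeR adjusted p = 0.0909 to 0.11), and only 33.2% of its sequence words occur in no other gene. The list had 3 peak genes in each of those 4 analyses and 9 with library totals.

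Of 32 tested erythroid transcription factors and erythropoietin signalling genes, 4 were peak genes (12.5%, against 5.25% of all tested genes). By the middle contrast 8 were higher (25%, against 18%) and 6 lower (18.8%, against 10.5%), with a median of 0.13. Ldb1, which bridges GATA1 and TAL1 complexes, stood at 684 to 955 CPM against 397 to 626 in the other 6 libraries. E2f4, an E2F factor with a role in red cell proliferation, stood at 417 to 483 CPM against 258 to 374 in the other 6 libraries, with differences of 0.74 and 0.56, and it kept its call except with DESeq2 size factors (edgeR adjusted p = 0.0563). Klf13 stood at 356 to 415 CPM against 157 to 341 in the other 6 libraries and Mbd2, a methyl-CpG binding protein, at 293 to 357 CPM against 121 to 286 in the other 6 libraries. The list had 1 peak gene without replicate 1 of CD43++ckit+, replicate 1 or 2 of CD43+ckit- or replicate 2 of CD43-ckit-, since the calls of Ldb1, Klf13 and Mbd2 were lost there (edgeR adjusted p = 0.0522 to 0.173). Over all 18 alternatives these 3 genes lost the call in 9, 11 and 12. Gata1 and Klf1 themselves were neither peaks nor dips, with means of 283.8, 609.6 and 763.3 CPM and of 240.8, 598.7 and 754.5 CPM.

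Globin and haemoglobin handling genes had 0 peak and 0 dip genes among 6 tested of 16 listed. The rows Hbb-bs, Hbb-bt, Hbb-b1 and Hbb-b2 were at 0 counts in CD43+ckit- and failed the count filter, which takes in all 9 libraries. Hba-a1 and Hba-a2 were not tested either, so adult globin levels could not be compared between the populations. Why these counts are low or absent was not tested. The summed level of the red cell membrane list ranged over 4774 to 5511 CPM in the CD43++ckit+ libraries, over 22760 to 25900 in those of CD43+ckit- and over 44700 to 71390 in those of CD43-ckit-. Its sum therefore rose steadily while 6 of its members peaked. The haem synthesis and iron list did the same, at 6666 to 6925, 20280 to 24020 and 45520 to 64490 CPM.

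Among the cell division lists, higher calls in the middle contrast made up 50% of mitosis, 57.1% of DNA replication and 24.2% of cell cycle regulator genes, against 18% of all tested genes. Of 34 mitosis and cytokinesis genes, 4 were peak genes (11.8%, against 5.25% of all tested genes). By the middle contrast 17 were higher and 1 lower, with a median of 0.58. Ccnb2 stood at 119, 117 and 138 CPM in CD43++ckit+, at 198, 207 and 221 in CD43+ckit- and at 45.9, 70.1 and 81.4 in CD43-ckit-. The log2 difference was 0.74 (SE 0.19, edgeR adjusted p = 0.014) against CD43++ckit+ and 1.66 (SE 0.20, adjusted p = 0.000279) against CD43-ckit-. Ccnb2, a B-type cyclin of mitotic entry, fell in CD43-ckit- below its CD43++ckit+ level (-0.92, SE 0.19, edgeR adjusted p = 0.00249).

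Cenpa, the centromeric histone, stood at 185 to 218 CPM against 75.02 to 145 in the other 6 libraries, Birc5, survivin of the chromosomal passenger complex, at 116 to 127 CPM against 27.7 to 81.1 in the other 6 libraries, and Aurka, a spindle pole kinase, at 108 to 141 CPM against 60.96 to 96.2 in the other 6 libraries. Leaving out replicate 2 of CD43+ckit- took away all 4 mitosis calls (edgeR adjusted p = 0.0622 for Ccnb2, 0.0639 for Cenpa, 0.0824 for Birc5 and 0.105 for Aurka), and with library totals all 4 were lost as well (0.192 to 0.324), while 1 other gene of the list was a peak gene. Without replicate 1 or 2 of CD43++ckit+ the calls of Ccnb2, Birc5 and Aurka were also lost (0.0535 to 0.083), as were Birc5 without replicate 1 or 3 of CD43+ckit- (0.0616 and 0.0597) and Aurka without replicate 3 (0.0507).

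DNA replication genes had 2 peak genes among 35 (5.71%, close to the 5.25% of all tested genes), and 20 were higher and 0 lower in the middle contrast. Gins4, of the replicative helicase, stood at 49.97 to 63.4 CPM against 28.6 to 41.5 in the other 6 libraries, and Fen1, the flap endonuclease, at 203 to 221 CPM against 111 to 166 in the other 6 libraries. The Gins4 call was lost without replicate 2 of CD43++ckit+ or 1 of CD43+ckit- (edgeR adjusted p = 0.0566 and 0.0561) and the Fen1 call without replicate 1 of CD43++ckit+ (0.0508), and both with library totals (0.304 and 0.33). Of the exons of Fen1, 84.2% overlap other genes. Mcm2, a subunit of the helicase, was no peak gene, with means of 438.2, 399.9 and 130.6 CPM.

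Cell cycle regulators had 4 peak genes among 33 (12.1%, against 5.25% of all tested genes). By the middle contrast 8 were higher (24.2%, against 18%) and 5 lower (15.2%, against 10.5%), with a median of -0.11. E2f4, among the 4 peak genes, is the same call as in the erythroid transcription factor list. Ccne1 stood at 31.4, 36.2 and 42.2 CPM in CD43++ckit+, at 77.5, 68.8 and 66.9 in CD43+ckit- and at 13.5, 19.96 and 25.05 in CD43-ckit-. On the log2 scale this was a difference of 0.96 (SE 0.21, edgeR adjusted p = 0.00691) against CD43++ckit+ and 1.86 (SE 0.22, adjusted p = 0.000272) against CD43-ckit-. Ccne1, the cyclin of entry into DNA synthesis, was highest in all 3 CD43+ckit- libraries and lowest in CD43-ckit-, and it kept its call except with library totals (edgeR adjusted p = 0.0867). Cdkn2c, a CDK inhibitor of the INK4 family, stood at 219.7 to 237 CPM against 107 to 155 in the other 6 libraries, and Mxd3, of the MYC antagonist MXD family, at 30.4 to 38.03 CPM against 6.91 to 19.8 in the other 6 libraries. Cdkn2c kept its call in 18 of 18 alternatives, and Mxd3 lost it without replicate 1 of CD43++ckit+ or 2 of CD43+ckit- (edgeR adjusted p = 0.052 and 0.0528) and with library totals (0.0645).

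Histone genes and variants had 3 peak genes of 26 (11.5%, against 5.25% of all tested genes), Cenpa among them, and 1 dip gene (3.85%, against 2.72%). Hist2h2be stood at 28.1 to 38.97 CPM against 15.05 to 20.7 in the other 6 libraries and kept its call in 18 of 18 alternatives, while H2afv, at 81.2 to 100.5 CPM against 54.99 to 76.9 in the other 6 libraries, lost it in 15 of 18 (edgeR adjusted p = 0.0512 to 0.244 in those with 1 library left out). H2afy, which encodes macroH2A, dipped to 32.2 to 55.1 CPM, against 163 to 185 in CD43++ckit+ and a range of 63.1 to 130.3 in CD43-ckit-, and lost its call with library totals (edgeR adjusted p = 0.184).

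Mitochondrial respiration had 1 peak gene among 32 (3.12%, against 5.25% of all tested genes). Glycolysis had 4 dip genes among 23 (17.4%, against 2.72% of all tested genes). Cs stood at 328, 327 and 356 CPM in CD43++ckit+, at 479, 473 and 456 in CD43+ckit- and at 214, 212 and 238 in CD43-ckit-. Fitted log2 differences were 0.48 (SE 0.11, edgeR adjusted p = 0.00709) against CD43++ckit+ and 1.08 (SE 0.11, adjusted p = 0.000124) against CD43-ckit-. Cs, citrate synthase of the citric acid cycle, was the respiration gene that peaked, and it lost the call with library totals (edgeR adjusted p = 0.291). In the middle contrast 11 respiration genes were higher (34.4%, against 18% of all tested genes) and 0 lower, with a list median of 0.27. Of the glycolysis genes 2 were higher (8.7%) and 11 lower (47.8%, against 10.5%), with a list median of -0.78.

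Pfkfb3 stood at 26.01, 19.8 and 18.3 CPM in CD43++ckit+, at 2.42, 5.701 and 5.22 in CD43+ckit- and at 11.8, 19.6 and 19.9 in CD43-ckit-. Its log2 difference was -2.26 (SE 0.35, edgeR adjusted p = 0.00123) against CD43++ckit+ and -1.94 (SE 0.34, adjusted p = 0.00183) against CD43-ckit-. Pfkfb3, which makes the allosteric activator of phosphofructokinase, was more than 3 times lower than in each other group mean and kept its call in 18 of 18 alternatives. Pfkl, the liver type phosphofructokinase, stood at 66.5 to 94.6 CPM against 104 to 158 in the other 6 libraries, and Gapdh at 1022 to 1236 CPM against 1408 to 1791 in the other 6 libraries. Pgam1, phosphoglycerate mutase, had a CD43+ckit- range of 14.7 to 24.2 CPM, against 43.3 to 65.1 in CD43++ckit+ and a range of 21.9 to 42.6 in CD43-ckit-, which overlapped the other 6 libraries. The dips of Pfkl, Gapdh and Pgam1 were each lost without replicate 1 or 2 of CD43++ckit+, 1 or 3 of CD43+ckit- or 2 of CD43-ckit- (edgeR adjusted p = 0.0501 to 0.154), which left Pfkfb3 as the list's 1 dip gene there. All 3 were also lost with library totals (0.459 to 0.967). Over 18 alternatives Pfkl, Gapdh and Pgam1 lost the call in 9, 11 and 9, Pgam1 also with the neutrophil covariate (edgeR adjusted p = 0.115). Only 58.5% of the sequence words of Pgam1 and 72.8% of those of Gapdh are unique, so reads of processed pseudogenes may be counted in them.

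Single genes of other metabolic lists also peaked or dipped. Slc38a5, a glutamine and serine transporter, stood at 294 to 391 CPM against 113 to 260.1 in the other 6 libraries and kept its peak in 18 of 18 alternatives. Phgdh, which starts serine synthesis, had a CD43+ckit- range of 7.63 to 16.2 CPM, against 40.3 to 56.4 in CD43++ckit+ and a range of 14.6 to 36.2 in CD43-ckit-, with overlap and 36.9% unique sequence. Its dip was lost in 7 of 18 alternatives. They include those without replicate 1 or 3 of CD43+ckit- or 2 or 3 of CD43-ckit- (edgeR adjusted p = 0.0681 to 0.133), with library totals (0.376) and with the neutrophil covariate (0.153). Fdps, of cholesterol synthesis, stood at 96.4 to 112 CPM against 51.5 to 85.7 in the other 6 libraries and lost its peak in 11 of 18 alternatives, among them those without replicate 1 or 2 of CD43++ckit+, any CD43+ckit- library or replicate 2 of CD43-ckit- (0.0575 to 0.173).

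Of the 14 dip genes with the largest steps, 12 kept the call in every alternative that tested them. They were chosen by the same rule as the 14 peak genes, so their lack of overlap is by selection and large steps favour keeping the call. Ptgs1 stood at 11.6, 11.8 and 16.8 CPM in CD43++ckit+, at 0.908, 3.45 and 2.63 in CD43+ckit- and at 10.3, 16.8 and 16.9 in CD43-ckit-. In the fit, CD43+ckit- differed by a log2 value of -2.52 (SE 0.44, edgeR adjusted p = 0.00234) against CD43++ckit+ and -2.65 (SE 0.45, adjusted p = 0.00146) against CD43-ckit-. Ptgs1, the cyclooxygenase that starts prostanoid synthesis, was low in all 3 CD43+ckit- libraries, and the other populations were not called different (0.13, SE 0.42, edgeR adjusted p = 0.785).

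Igfbp4 stood at 21.02, 19.8 and 34.6 CPM in CD43++ckit+, at 3.33, 6.204 and 4.49 in CD43+ckit- and at 23.4, 40.4 and 41.1 in CD43-ckit-. These values gave log2 differences of -2.43 (SE 0.33, edgeR adjusted p = 0.000803) against CD43++ckit+ and -2.90 (SE 0.34, adjusted p = 0.000264) against CD43-ckit-. Igfbp4, a secreted binding protein of insulin-like growth factors, was at least 3 times lower in each CD43+ckit- library than in the lowest of the other 6. Zc3hav1l stood at 8.602, 10.7 and 7.502 CPM in CD43++ckit+, at 1.41, 2.18 and 2.79 in CD43+ckit- and at 75.8, 51.8 and 42.9 in CD43-ckit-. The log2 difference was -2.07 (SE 0.30, edgeR adjusted p = 0.00096) against CD43++ckit+ and -4.74 (SE 0.33, adjusted p = 3.12e-05) against CD43-ckit-. Zc3hav1l, a relative of the zinc finger antiviral protein, had the lowest middle contrast of the 14 (-3.40), and CD43-ckit- stood far above CD43++ckit+ as well.

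Sptan1 stood at 62.2, 44.9 and 47.2 CPM in CD43++ckit+, at 9.28, 19.5 and 15.5 in CD43+ckit- and at 46.5, 59.6 and 50.1 in CD43-ckit-. On the log2 scale this was a difference of -1.80 (SE 0.26, edgeR adjusted p = 0.001) against CD43++ckit+ and -1.82 (SE 0.26, adjusted p = 0.000694) against CD43-ckit-. Sptan1, the alpha spectrin of non-erythroid cells, was not called different between the outer populations (0.02, SE 0.25, edgeR adjusted p = 0.953) and lower in CD43+ckit- without overlap. Dock10 stood at 60.8, 69.6 and 37.6 CPM in CD43++ckit+, at 4.304, 4.79 and 7.18 in CD43+ckit- and at 12.6, 22.3 and 19.9 in CD43-ckit-. Fitted log2 differences were -3.37 (SE 0.33, edgeR adjusted p = 0.000325) against CD43++ckit+ and -1.75 (SE 0.31, adjusted p = 0.00189) against CD43-ckit-. Dock10, a guanine nucleotide exchange factor of the DOCK family, was highest in CD43++ckit+, intermediate in CD43-ckit- and low in CD43+ckit-.

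The other named dips were of like size. Tuba8, an alpha tubulin, stood at 0.74 to 2.58 CPM against 6.29 to 16.2 in the other 6 libraries, and Bin1, a BAR domain protein of membrane bending, at 1.21 to 3.49 CPM against 10.8 to 18.2 in the other 6 libraries. Fcgr2b, the inhibitory Fc gamma receptor, stood at 1.41 to 5.03 CPM against 9.74 to 18.1 in the other 6 libraries, with 88.6% unique sequence beside its relative Fcgr3. St8sia4, a polysialyltransferase, stood at 1.88 to 2.31 CPM against 6.05 to 20.7 in the other 6 libraries, Pgm2, a phosphoglucomutase, at 1.11 to 4.02 CPM against 6.52 to 22.1 in the other 6 libraries, and Arhgap15, a Rac GTPase activating protein, at 2.72 to 3.08 CPM against 7.23 to 29.2 in the other 6 libraries.

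Ctsc, cathepsin C, which activates granule proteases, stood at 1.65 to 7.21 CPM against 13.1 to 24.02 in the other 6 libraries and lost its call with library totals (edgeR adjusted p = 0.0563). Axl, a TAM receptor kinase of macrophages, stood at 1.75 to 3.45 CPM against 5.12 to 28.05 in the other 6 libraries. The Axl call was lost without replicate 3 of CD43++ckit+ or replicate 1 or 3 of CD43+ckit- (edgeR adjusted p = 0.059 to 0.082).

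**Figure D3:**
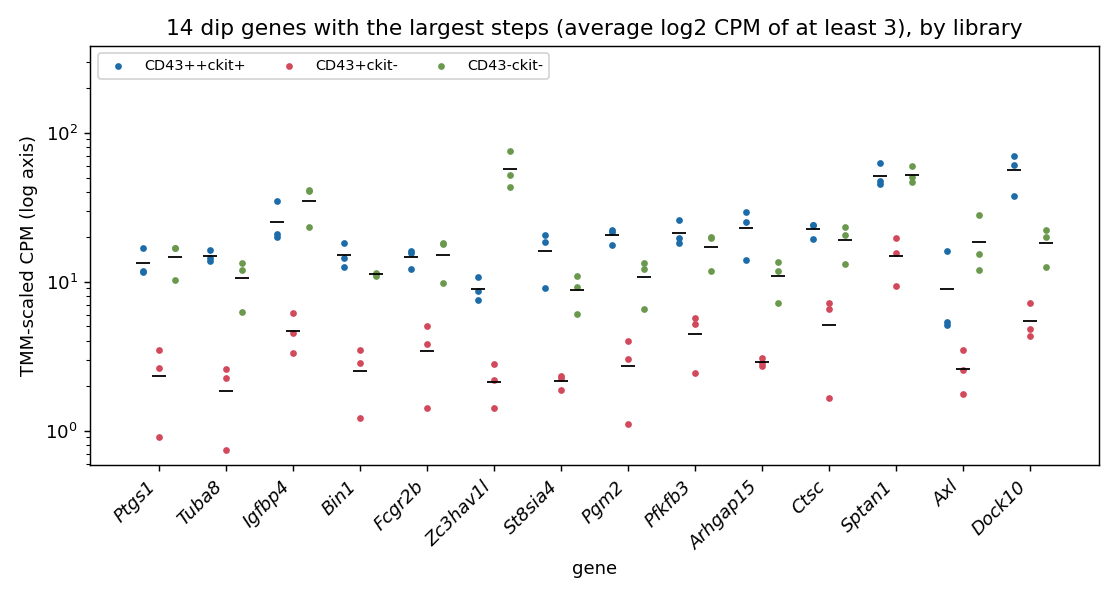
Points give CPM (log axis) in each of the 9 libraries for the 14 dip genes with the largest steps, coloured by population, and black bars are group means. The genes were chosen to have no overlap, so the 3 CD43+ckit- points lie below the other 6 in each by selection. Replicate 1 of CD43+ckit- is often the lowest, as in Ptgs1 at 0.908 CPM.

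Of 23 tested progenitor and stem cell genes, 7 were lower in the middle contrast (30.4%, against 10.5% of all tested genes) and 0 higher. The list median was -0.95. The list held 4 dip genes (17.4%, against 2.72%) and 0 peak genes. Besides Kit these were Bcl2, Hlf and Angpt1. Bcl2 stood at 9.93, 10.3 and 8.02 CPM in CD43++ckit+, at 0.471, 1.51 and 1.86 in CD43+ckit- and at 2.28, 5.24 and 5.81 in CD43-ckit-. Its log2 difference was -2.87 (SE 0.51, edgeR adjusted p = 0.00252) against CD43++ckit+ and -1.79 (SE 0.50, adjusted p = 0.0161) against CD43-ckit-. Bcl2, the founding survival gene of its family, lay below the other 6 libraries in all CD43+ckit- libraries, with replicate 1 of CD43-ckit- only slightly above them.

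Hlf stood at 3.87, 2.73 and 3.57 CPM in CD43++ckit+, at 0.908, 1.14 and 1.09 in CD43+ckit- and at 2.51, 2.68 and 1.65 in CD43-ckit-. In the fit, CD43+ckit- differed by a log2 value of -1.69 (SE 0.30, edgeR adjusted p = 0.00246) against CD43++ckit+ and -1.12 (SE 0.30, adjusted p = 0.0137) against CD43-ckit-. Hlf, a transcription factor of stem cells, was lowest in the CD43+ckit- libraries, without overlap. Angpt1, a niche ligand, had means of 1.42, 0.277 and 0.868 CPM. Without replicate 2 of CD43-ckit- none of the 4 was called (edgeR adjusted p = 0.113 for Kit, 0.0507 for Bcl2, 0.0536 for Hlf and 0.162 for Angpt1), nor with library totals. Bcl2 was also lost without replicate 3 of CD43-ckit- (0.0535), and Angpt1 in 9 of 17 alternatives. Myb, a progenitor transcription factor, was no dip gene, with means of 258.1, 58.6 and 72.6 CPM.

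AML1-ETO associated genes had 4 dip genes and 1 peak gene among 20 tested (20% and 5%, against 2.72% and 5.25% of all tested genes). By the middle contrast 2 were higher (10%, against 18%) and 5 lower (25%, against 10.5%), with a median of -0.63. The peak gene was Runx1t1, and the dip genes were Cbfb, Runx3, Id1 and Bcl2. Cbfb stood at 74.7, 77.99 and 58.4 CPM in CD43++ckit+, at 4.91, 10.4 and 10.03 in CD43+ckit- and at 19.4, 35.02 and 29.6 in CD43-ckit-. These values gave log2 differences of -3.06 (SE 0.32, edgeR adjusted p = 0.00039) against CD43++ckit+ and -1.73 (SE 0.31, adjusted p = 0.00203) against CD43-ckit-. Cbfb, the partner subunit of RUNX proteins, had no overlap between groups and kept its call in 18 of 18 alternatives.

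Runx3 stood at 26.9, 25.3 and 22.1 CPM in CD43++ckit+, at 2.49, 4.63 and 4.04 in CD43+ckit- and at 5.499, 12.4 and 13.3 in CD43-ckit-. The log2 difference was -2.73 (SE 0.36, edgeR adjusted p = 0.000672) against CD43++ckit+ and -1.49 (SE 0.35, adjusted p = 0.0067) against CD43-ckit-. Runx3, a paralogue of Runx1, followed the same order as Cbfb, with CD43++ckit+ highest and CD43+ckit- lowest, and lost its call only with library totals among 18 alternatives (edgeR adjusted p = 0.0839). Id1, an inhibitor of bHLH factors, stood at 1.58 to 7.71 CPM against 10.3 to 58.7 in the other 6 libraries. The Id1 call was lost in 8 of 18 alternatives, among them those without replicate 1 or 2 of CD43++ckit+, 3 of CD43+ckit- or any 1 of CD43-ckit- (0.0505 to 0.0915).

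**Figure D4:**
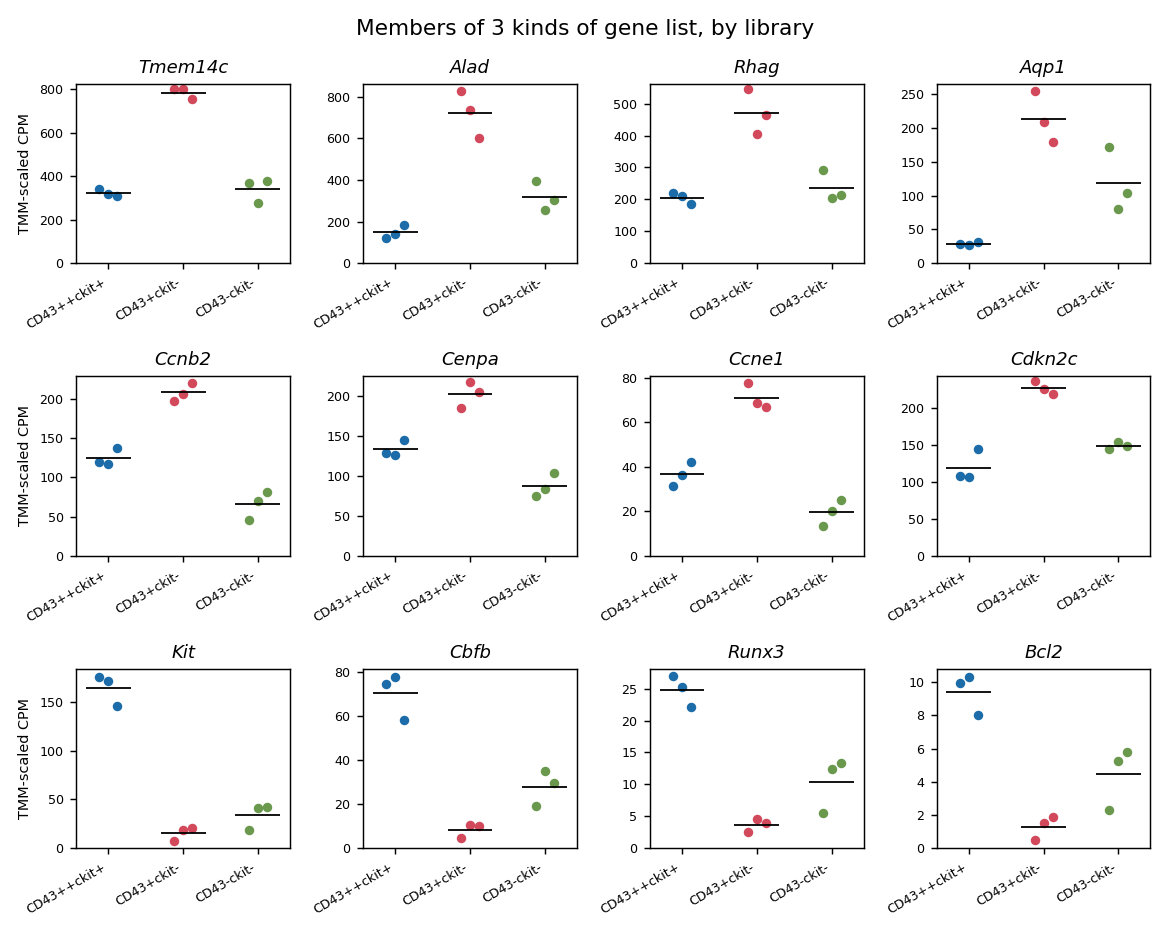
CPM in each of the 9 libraries for 4 haem and red cell membrane genes (top row), 4 cell cycle genes (middle row) and 4 progenitor or AML1-ETO associated genes (bottom row), with bars at the group means and linear axes from 0. CD43+ckit- points are above all others in the top 2 rows, and in the bottom row they are below all others except for Kit.

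Of 34 growth factor and cytokine receptors, 1 was higher (2.94%, against 18% of all tested genes) and 6 lower (17.6%, against 10.5%) in the middle contrast. The list had 4 dip genes (11.8%, against 2.72%) and 0 peak genes. Besides Kit these were receptors of the TGF-beta family, Acvr1b at 37.8 to 42.9 CPM against 58.8 to 95.6 in the other 6 libraries, Tgfbr2 at 6.12 to 12.7 CPM against 15.4 to 42.6 in the other 6 libraries and Tgfbr1 at 3.62 to 4.23 CPM against 5.44 to 10.3 in the other 6 libraries. Acvr1b lost its call with library totals alone (edgeR adjusted p = 0.324). Tgfbr2 lost it in 7 of 18 alternatives. They are those without replicate 1 or 3 of CD43+ckit- or 2 or 3 of CD43-ckit- (0.0707 to 0.0865), with library totals (0.647), the neutrophil covariate (0.0562) and no low-count filter (0.0521). Tgfbr1 lost it in 11 of 18 alternatives, including every 1-library omission except that of replicate 1 of CD43-ckit- (0.0618 to 0.12).

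Among 27 tested p53 targets and BCL2 family genes, 3 were dip genes (11.1%, against 2.72% of all tested genes) and 1 a peak gene (3.7%, against 5.25%). By the middle contrast 2 were higher (7.41%, against 18%) and 12 lower (44.4%, against 10.5%). The pro-apoptotic Bad peaked at 26.7 to 33.9 CPM against 20.4 to 23.2 in the other 6 libraries. The Bad call was lost in 7 of 18 alternatives, among them those without replicate 1 or 2 of CD43++ckit+ or of CD43+ckit- (edgeR adjusted p = 0.0554 to 0.123) and with library totals (0.423). Aen, an apoptosis nuclease, dipped at 23.5 to 30.03 CPM against 37.03 to 72.3 in the other 6 libraries. The Aen call was lost in 6 of 18 alternatives, among them those without replicate 1 or 3 of CD43+ckit- or 1 or 2 of CD43-ckit- (0.0625 to 0.11) and with library totals (0.913). The other dip genes were Bcl2, the same call as in the progenitor and AML1-ETO associated lists, and Bnip3, a mitophagy receptor. Bnip3 was also the 1 dip gene of 33 autophagy genes (3.03%, near the 2.72% of all tested genes).

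Lists that held 0 peak and 0 dip genes included MYC targets and ribosome biogenesis, nucleotide synthesis, interferon response, heat shock and immediate early genes, and histone and DNA modifying enzymes. In the middle contrast, 14 of 31 MYC and ribosome genes were lower (45.2%, against 10.5% of all tested genes) and 0 higher (median -0.63), as for the nucleolar protein gene Npm1 with means of 629.8, 187.7 and 166.8 CPM. Of 32 interferon response genes 7 were higher (21.9%, near the 18% of all tested genes) and 0 lower, as for Oas3 with means of 133.5, 764.6 and 1172 CPM. Of 25 heat shock and immediate early genes, 8 were lower (32%, against 10.5% of all tested genes) and 0 higher.

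**Figure D5:**
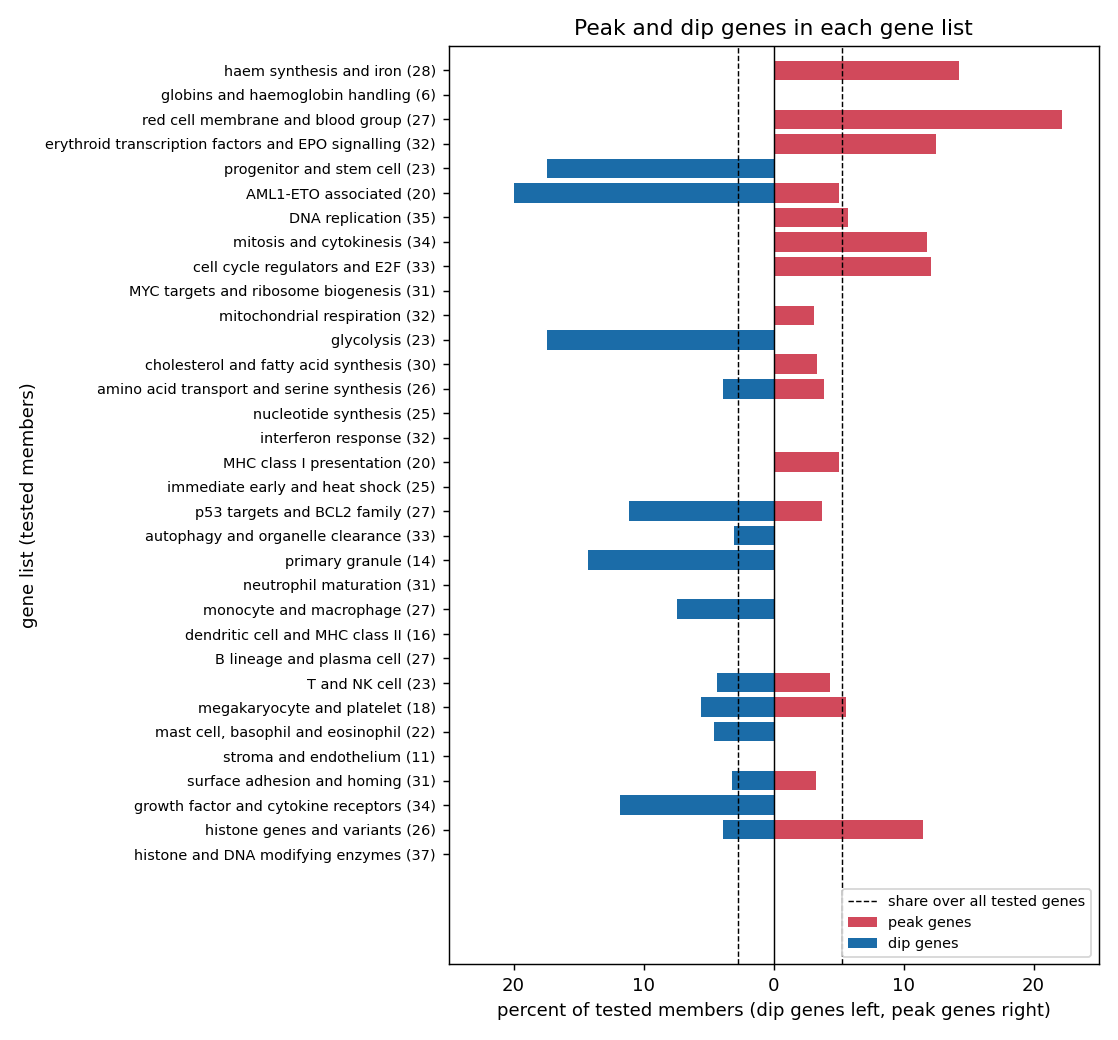
Bars show the percent of tested members of each of 33 gene lists that were peak genes (red, right) or dip genes (blue, left), with tested members in brackets and dashed lines at the shares over all tested genes (5.25% and 2.72%). The red cell membrane list has the longest red bar (22.2%) and the AML1-ETO associated list the longest blue bar (20%).

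Markers of other cell types were read beside the dips. The summed level of the mast cell, basophil and eosinophil list ranged over 2030 to 3120 CPM in the CD43++ckit+ libraries, over 1206 to 1317 in those of CD43+ckit- and over 2356 to 2415 in those of CD43-ckit-, and was thus lowest in CD43+ckit-, as was Kit, which mast cells express. Of its 22 tested members 1 was a dip gene (4.55%, against 2.72% of all tested genes), the mast cell protease Cpa3 with a middle contrast of -3.76 (SE 0.61, edgeR adjusted p = 0.0035). Cpa3 lay near the floor, with a log2 CPM that averaged below 1, and the strict low-count filter left it out. The list sum thus came almost wholly from members that were not dip genes. In the middle contrast 7 members were lower (31.8%, against 10.5%). The megakaryocyte sum was 561.2 to 798.5, 397.8 to 448 and 478.1 to 589.5 CPM, and the T and NK cell sum 119.1 to 167.5, 93.3 to 104.9 and 113.8 to 127.2 CPM, both also lowest in CD43+ckit-. The part of these cells in the dips was not tested.

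Of the myeloid lists, the primary granule sum was 817.1 to 1893 CPM in the CD43++ckit+ libraries, 786.7 to 955.4 in the CD43+ckit- ones and 4172 to 4790 in the CD43-ckit- ones, with overlap of the first pair and a list median of -2.19 in the middle contrast. The neutrophil maturation sum was 183.8 to 8039, 975.4 to 5277 and 8220 to 23790 CPM, and 0 of its 31 tested members were peaks or dips. Of 14 primary granule genes 2 were dip genes (14.3%, against 2.72% of all tested genes), Ctsc and Cst7. Cst7, the cystatin of granule cathepsins, stood at 1.41 to 2.52 CPM against 6.52 to 11.99 in the other 6 libraries and kept its call in 18 of 18 alternatives. Of 27 monocyte and macrophage genes 2 were dip genes (7.41%, against 2.72%), Axl and Mrc1, the mannose receptor. Mrc1 stood at 0.973 to 1.31 CPM against 2.41 to 10.6 in the other 6 libraries and lost its call without replicate 3 of CD43+ckit- (edgeR adjusted p = 0.0542). The dendritic cell, B-lineage and stroma lists had 0 peak and 0 dip genes.

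Some single genes of the lineage lists peaked or dipped. Lck stood at 4.07, 3.94 and 5.98 CPM in CD43++ckit+, at 28.4, 27.3 and 23.5 in CD43+ckit- and at 10.1, 11.3 and 9.904 in CD43-ckit-. On the log2 scale this was a difference of 2.50 (SE 0.20, edgeR adjusted p = 0.000292) against CD43++ckit+ and 1.34 (SE 0.20, adjusted p = 0.000707) against CD43-ckit-. Lck, a SRC family kinase known from T cells, peaked in CD43+ckit- while Cd3d, Cd3e, Cd3g and Zap70 ranged from 0.202 to 1.04 CPM there, and it kept its call in 18 of 18 alternatives. Gata3, also of the T and NK list, dipped at 31.2 to 35.1 CPM against 41.3 to 72.99 in the other 6 libraries. The Gata3 call was lost in 6 of 18 alternatives, among them those without replicate 1 or 3 of CD43+ckit- or 1 or 2 of CD43-ckit- (edgeR adjusted p = 0.0573 to 0.0996) and with library totals (0.801).

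Gp9, a subunit of the platelet von Willebrand factor receptor, peaked at 8.56 to 11.7 CPM against 1.07 to 3.23 in the other 6 libraries, while Fli1, a megakaryocyte transcription factor, dipped at 8.24 to 12.1 CPM against 19.2 to 50.9 in the other 6 libraries. Both are on the megakaryocyte list, 1 peak and 1 dip gene of 18 (5.56% each, against 5.25% and 2.72% of all tested genes). By the middle contrast 2 of its members were higher (11.1%, against 18%) and 3 lower (16.7%, against 10.5%). Fli1 lost its call with library totals (edgeR adjusted p = 0.0992). In the adhesion list Itgb7, a gut-homing integrin subunit, peaked at 740.0 to 899.7 CPM against 338 to 560.3 in the other 6 libraries in 18 of 18 alternatives, and Itga1, a collagen receptor subunit, dipped at 1.14 to 1.95 CPM against 2.43 to 5.63 in the other 6 libraries, a call lost without replicate 1 or 2 of CD43++ckit+ or 1 or 3 of CD43+ckit- (0.0723 to 0.0968) or with library totals (0.0508). Nlrc5, the transactivator of MHC class I genes, peaked at 56.1 to 57.4 CPM against 33.7 to 45.4 in the other 6 libraries, and lost the call without replicate 1 or 2 of CD43++ckit+ or any 1 of CD43+ckit- (0.0589 to 0.106) and with library totals (0.381).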

How the data were processed

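Gene counts for 9 libraries from sorted leukaemic marrow, 3 per population, were analysed as the authors deposited them, as whole-number counts per gene symbol. RNA was taken with TRIzol and libraries were made with a TruSeq kit, per the labels' protocols. The submitters' processing notes list edgeR, HTSeq, RSEM, TopHat2 2.0.4 and CASAVA 1.8 but give them no role, so how the authors made the counts is known only from the table's HTSeq title. The build named there is human while the symbols are mouse, so the genome build is unclear. Annotation and strand setting were not given in the sources used here.

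Of 24391 rows, 6162 were 0 in all libraries and 27 carried dates in place of symbols. These date rows are not named. Counts were filtered by filterByExpr (minimum count 10), which left 12573 genes, scaled by TMM (factors 0.589 to 1.41) and fitted with edgeR 4.0.16 in R 4.3.3 (robust quasi-likelihood) as 3 group means over all 9 libraries. The contrast was CD43+ckit- minus the average of both other groups, and p-values were adjusted by Benjamini-Hochberg over all tested genes, with a threshold of 0.05. The SE is the size of the log2 difference divided by the square root of its F statistic. In simulated data with 12454 genes, the peak and dip rule recovered 28% of 2-fold higher, 34% of 2-fold lower, 92% of 4-fold higher and 96% of 4-fold lower genes, with 0 false among 125 calls. At each size 50 genes were changed in CD43+ckit- alone, and all other genes had equal means in the 3 groups. No simulated gene rose or fell steadily, so the simulation does not give the share of false or missed calls in these data. Each pair of libraries within a population was compared by chi-square, at 16.6 to 129 per degree of freedom, which is beyond sampling noise, and each library counts once.

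The members and the 33 gene lists were chosen with earlier results of these data known. Genes named are Kit, Spn, Runx1, Runx1t1, the 14 peak and 14 dip genes with the largest steps (log2 CPM averaging at least 3, no overlap, predicted genes left out) and up to 4 peak or dip genes of each list whose log2 CPM averaged at least 1. Genes of a list that fall outside this rule, and genes that are no peak or dip gene, were named after their values were seen. Alternatives were other scalings, filters, DESeq2 1.42.0, a replicate block, separate fits, a neutrophil covariate, a minimum step and libraries left out. Sequence uniqueness, overlap, length and GC come from GENCODE transcripts of GRCm38 (words of 50 bases), and promoters from RefSeq.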

Additional observations from a re-analysis of the deposited data

How the results depend on the processing

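Counts of calls moved with scaling and with single libraries, and the direction of no named gene reversed. With library totals in place of TMM, 3624 genes were higher and 820 lower in the middle contrast, and 171 were dip genes, of which 118 were among the original 342. The median middle contrast over all tested genes was then 0.213 in place of 0.023. Pairwise medians moved further and in opposite directions, so the shifts partly cancel in the middle contrast. Against CD43++ckit+ the median was -0.283 in place of -0.013, and against CD43-ckit- 0.778 in place of 0.13. The latter is larger than the median step of peak genes with TMM (0.63). Peak genes numbered 711 with library totals, of which 301 were among the original 660. DESeq2 gave 2169 lower and 524 dip genes, and the neutrophil list mean as a covariate gave 2277 lower and 526 dip genes. A minimum step of 1 left 120 peak and 206 dip genes. Dropping from each population the library that correlated least left 3571 higher, 2946 lower, 1102 peak and 908 dip genes. Leaving out 1 library at a time gave 1189 to 2956 higher, 677 to 1606 lower, 386 to 985 peak and 201 to 440 dip genes. The counts with DESeq2 size factors, with no filter, with the strict filter and with separate fits stayed within 1.5 times. Of 1899 values of named genes under the alternatives, 1562 kept their call status, 336 lost the call, 1 gained it and 0 reversed. Of 561 list medians 462 stayed within the spread of the CD43+ckit- libraries. Library totals lost 49 named calls. In the simulation, which held no steady rises or falls, 2-fold changes were recovered for 28% of higher and 34% of lower genes by the peak and dip rule. Changes of that size can be missed, and the share missed in these data was not measured.

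Replicate numbers are shared between the populations. For libraries with the same number, deviations from the group means had correlations of 0.447, -0.617 and 0.382 (CD43++ckit+ with CD43+ckit-), of 0.525, 0.366 and 0.303 (CD43+ckit- with CD43-ckit-) and of 0.262, -0.318 and 0.252 (CD43++ckit+ with CD43-ckit-). The numbers were therefore not taken to pair the 3 populations. With replicate numbers as a block, 2015 genes were higher, 1302 lower, 589 peak genes and 361 dip genes, of which 554 and 305 were among the original ones. Under this block 6 named calls missed the threshold, those of Axl, Gapdh, Ldb1, Ndufb4, Nlrc5 and Tgfbr1 (edgeR adjusted p = 0.0505 to 0.0904).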

Other observations

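Further gene groups, which in part share members with the lists above, were counted after the values had been seen, so their counts describe the data and support nothing. Of 22 tested TGF-beta family ligands, receptors and SMADs, 6 were dip genes (27.3%, against 2.72% of all tested genes) and 2 were peak genes. Of these dip genes 3, Acvr1b, Tgfbr1 and Tgfbr2, are the same calls as in the receptor list above. In the middle contrast 10 of the 22 were lower and 2 higher, with a median of -0.87. Tgfb1, the main ligand of the family in blood, stood at 485, 457 and 334 CPM in CD43++ckit+, at 164, 217 and 182 in CD43+ckit- and at 306, 297 and 303 in CD43-ckit-. The log2 difference of Tgfb1 was -1.18 (SE 0.17, edgeR adjusted p = 0.000872) against CD43++ckit+ and -0.69 (SE 0.17, adjusted p = 0.00796) against CD43-ckit-, without overlap, and the call was lost with library totals among 18 alternatives (0.83). Smad3, a receptor-activated SMAD, moved the other way, with means of 53.8, 85.8 and 48.9 CPM, and lost its peak with library totals (0.0632). The dips of Smad1 and Smad4 were lost without replicate 1 or 2 of CD43++ckit+ (edgeR adjusted p = 0.0532 to 0.1), Smad1 also without replicate 3 of CD43+ckit- (0.0906) and Smad4 without replicate 1 of CD43+ckit- (0.0615). The family had 3 dip genes without replicate 1 of CD43++ckit+ or replicate 1 or 3 of CD43+ckit-, and 3 with library totals.

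Of 32 tested actin assembly genes, 14 were lower and 1 higher in the middle contrast. The list had 0 peak genes and 10 dip genes (31.2%, against 2.72% of all tested genes). They were Actr3, Arpc1b and Arpc2 of the ARP complex that branches filaments, Cap1, Capza2, Limk1, Msn, Pak2, Rac1 and Tpm3. Actr3 stood at 288, 262 and 259 CPM in CD43++ckit+, at 129, 155 and 175 in CD43+ckit- and at 232, 321 and 299 in CD43-ckit-, so CD43+ckit- lay below the other 6 libraries. The log2 difference of Actr3 was -0.82 (SE 0.16, edgeR adjusted p = 0.0039) against CD43++ckit+ and -0.89 (SE 0.16, adjusted p = 0.00205) against CD43-ckit-. The list had 4 dip genes without replicate 1 of CD43+ckit- and 3 with library totals, where Actr3 also lost its call (0.302).

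Of 35 tested subunits of respiratory complex I, the NADH dehydrogenase, 5 were peak genes (14.3%, against 5.25% of all tested genes) and 0 were dip genes, and 16 were higher and 0 lower in the middle contrast, with a median of 0.42. Ndufb10 stood at 94.9, 88.6 and 89.4 CPM in CD43++ckit+, at 137, 138 and 129 in CD43+ckit- and at 63.1, 57.9 and 77.5 in CD43-ckit-. The log2 difference of Ndufb10 was 0.57 (SE 0.13, edgeR adjusted p = 0.00699) against CD43++ckit+ and 1.02 (SE 0.13, adjusted p = 0.000351) against CD43-ckit-. The other 4, Ndufa13, Ndufb4, Ndufb7 and Ndufb9, had steps of 0.44 to 0.50. The list had 1 peak gene without replicate 2 of CD43+ckit- and 0 with library totals, where the Ndufb10 call was lost (0.179).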
